A study of Mus musculus with 6 samples.

Results

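A group of 10 genes of the BCL2 family was followed in SMC with and without ectopic TAZ-4SA expression. They were chosen by name, as the core survival and death genes of the family, and make up 10 of the 23361 gene symbols in the expression table. The anti-apoptotic members were Bcl2, Bcl2l1 and Mcl1, the effectors were Bax and Bak1, and the BH3-only members were Bid, Bcl2l11, Bbc3, Bik and Pmaip1. All 10 passed the filter on low values, which asked for 1 FPKM in at least 3 of the 6 libraries and left 12141 genes.

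SMC is the study's name for cells sorted by flow cytometry as NCAM-high and CD44-low or CD44-negative out of lung tumours in mice that carry conditional alleles of Rb1 and Trp53, on a mixed C57Bl/6, Balb-c and S129 background. Cre was delivered to the airways by an adenovirus with a CMV promoter, which is not restricted to a cell type, and both genes were deleted in the sorted cells by the study's genotyping. The labels give 1 cell line, SMC, for both groups, so by the labels the controls carry the same alleles. SMC-Ctrl received the empty vector and SMC-TAZ-4SA received a vector for TAZ-4SA, a mutant of the co-activator TAZ that is active at all times, and infected cells were selected with puromycin. Each group had 3 libraries. No source states that separate cultures were used, so the p-values reflect spread among libraries that may be technical. The data statement of the study describes the series as a comparison of SMC with non-SMC, whereas the sample titles and design text give SMC-Ctrl and SMC-TAZ-4SA, and the titles were followed.

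Proteins of the BCL2 family decide whether the outer mitochondrial membrane stays intact. BAX and BAK1 form the pores that release cytochrome c, the anti-apoptotic proteins BCL2, BCL-XL and MCL1 hold them in check, and the BH3-only proteins either neutralize these guardians or activate the effectors directly. Detached epithelial cells die through this pathway, a form of death called anoikis, and BH3-only proteins such as BIM and BMF take part in it. Levels of mRNA do not give protein levels, and many of these proteins are controlled by turnover, cleavage or phosphorylation.

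The libraries were checked first. Wwtr1, which encodes TAZ, rose from a mean of 0.143 to 34.5 FPKM. Of the sort markers, Ncam1 rose from 21.4 to 78.5 FPKM and Cd44 from 0.257 to 76.4 FPKM. By western blot the study reports less NCAM and more CD44 protein with TAZ-4SA. The Ncam1 mRNA thus moved against the study's protein result and Cd44 with it, and the reason was not tested. Rb1 fell from 7.59 to 0.802 FPKM, although the labels give both groups the same Rb1 alleles. A gene-level FPKM does not separate deleted from retained exons, and whether the groups share 1 Rb1 state was not tested. Trp53 was at 3.20 and 2.70 FPKM (limma adjusted p = 0.176), and it passed without SMC-TAZ-4SA replicate 1 (log2 change -0.32) and under both scalings (-0.36 and -0.30). Of the neuroendocrine genes, the 6 on the marker list were lower in SMC-TAZ-4SA, while Ncam1, also a neuroendocrine marker but kept as a sort marker here, was higher. The summed level of the 6 went from 1587 to 1787 FPKM down to 168 to 226 FPKM. Of 8 fibroblast markers 4 were tested and all 4 rose, the sum over the list going from 1.76 to 2.11 up to 342 to 391 FPKM, mostly Col1a1, while Dcn and Lum stayed near 0. Of 8 leukocyte markers, 1 of the 2 tested rose (Csf1r), the sum went from 0.914 to 1.20 up to 3.70 to 4.51 FPKM, and Ptprc and Cd3e were at or near 0. Of 6 endothelial markers 1 rose and 1 fell, with Pecam1, Cdh5 and Emcn near 0 and a sum of 29.6 to 34.0 against 2.09 to 2.49 FPKM. Of 6 lung epithelial markers 1 rose and 1 fell, with a sum of 22.3 to 27.3 against 4.27 to 5.95 FPKM, and Sftpc, Scgb1a1 and Krt5 listed at 0 in SMC-TAZ-4SA. These lists move with the groups as the members do, and their part in the results was not tested. In bulk RNA, fewer cells of a type and less RNA per cell cannot be told apart.

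Promoter sequence is shown for 3 of the 4 searched members with a match to a short motif of TEAD or MYC. TEAD is the DNA-binding partner of TAZ, and the gene of MYC rose in SMC-TAZ-4SA. Of the 10 members, 8 had an entry in the RefSeq promoter table of GRCm38.p6, with 13 start sites between them. The 250 bases before each start were searched on both strands for GGAATG (TEAD), CACGTG (the E-box bound by MYC) and TGANTCA (AP-1). No letters of these motifs overlapped another match. GGAATG was found before 1 start each of Bcl2l1 and Mcl1, and stood before 12.6% of all 32851 starts and before at least 1 start of 12.7% of the tested genes with an entry. The E-box stood before 1 start each of Bax and Bbc3, against 6.02% of all starts and 10.1% of tested genes. TGANTCA was in 0 of the 13 windows, against 6.75% of all starts. A match is a description of letters, not a binding site. The Bcl2l1 and Mcl1 windows are printed because these genes moved in opposite directions with the same motif, and the Bax window because Bax did not pass the test. The Bbc3 window is not printed, since it holds another start of Bbc3 and so transcribed sequence. Each is written 5′ to 3′ along the gene, with the motif in capitals, and ends at the base before the start. The Mcl1 motif lies on the opposite strand and reads as its reverse complement.
Bcl2l1, chr2:152831729-152831978, minus strand, GRCm38.p6: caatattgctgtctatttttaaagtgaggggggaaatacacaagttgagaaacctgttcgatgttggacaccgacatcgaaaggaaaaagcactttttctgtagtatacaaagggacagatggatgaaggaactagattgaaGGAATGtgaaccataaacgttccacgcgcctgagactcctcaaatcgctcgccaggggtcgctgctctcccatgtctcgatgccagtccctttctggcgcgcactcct
Mcl1, chr3:95658471-95658720, plus strand, GRCm38.p6: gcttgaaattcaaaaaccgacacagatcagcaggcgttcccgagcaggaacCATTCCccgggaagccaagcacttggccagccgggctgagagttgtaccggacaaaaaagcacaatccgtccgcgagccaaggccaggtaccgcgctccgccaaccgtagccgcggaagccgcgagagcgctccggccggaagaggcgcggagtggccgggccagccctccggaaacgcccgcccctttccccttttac
Bax, chr7:45466899-45467148, minus strand, GRCm38.p6: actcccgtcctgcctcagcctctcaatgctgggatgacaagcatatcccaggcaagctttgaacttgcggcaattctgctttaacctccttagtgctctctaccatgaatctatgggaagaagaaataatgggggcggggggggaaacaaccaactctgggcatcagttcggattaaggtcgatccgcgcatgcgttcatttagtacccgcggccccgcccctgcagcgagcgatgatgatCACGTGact
The first base of the motif lay 108 bases before the RefSeq start in Bcl2l1, 199 bases before it in Mcl1 and 9 bases before it in Bax. GENCODE M21 starts Mcl1 further downstream, at 95658788, so the Mcl1 distance depends on the annotation. Bases just after the RefSeq start were found in a GENCODE transcript for the Bcl2l1 and Bax windows shown, and not for Mcl1.

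To describe how survival and death genes differ between SMC with and without TAZ-4SA, each member was compared between the groups. Of the 10 members, 8 passed the test, 4 higher and 4 lower in SMC-TAZ-4SA. Mcl1, Bak1, Bid and Pmaip1 rose, and Bcl2l1, Bcl2l11, Bbc3 and Bik fell, so each direction held anti-apoptotic as well as pro-apoptotic genes. The test was limma on log2(FPKM + 1), with Benjamini-Hochberg adjustment over all 12141 genes and a threshold of 0.05. Across all tested genes 80.3% passed (9754 genes), 40.7% higher and 39.7% lower, so the share of members called was close to that of all genes. Scaling each library to the same total FPKM split the called genes into 3957 higher and 5919 lower, in place of 4939 and 4815, and moved the median log2 fold change of all genes from 0.02 to -0.19. The members' split of 4 and 4 was the same under that scaling. A change of at least 2-fold on the log2 scale, past the threshold, was found for 7 of the 10 members, against 32.2% of all tested genes. The groups did not overlap for 8 members, against 82.4% of all tested genes. The median absolute log2 change was 1.41 over the members and 0.62 over all tested genes, and the median signed change was 0.05 and 0.02. Since the members were chosen by name with earlier results of these data known, these shares are given as a description.

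**Figure D1:**
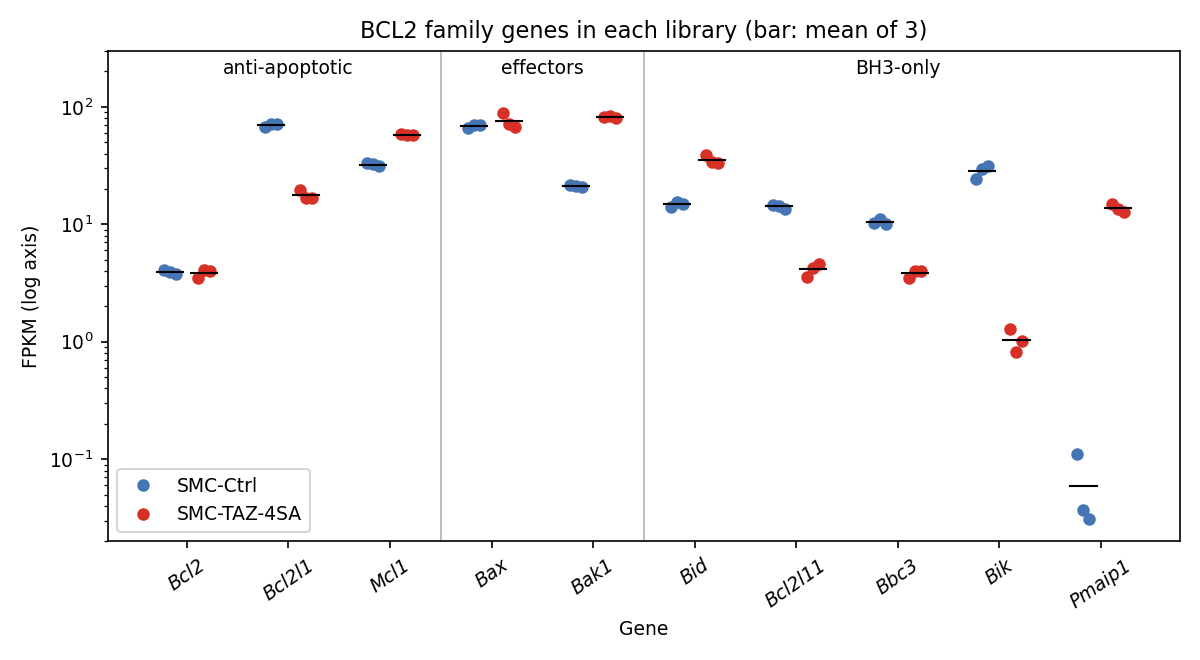
FPKM of the 10 BCL2 family genes (x axis, grouped by role) in each library, on a log axis. Points are single libraries of SMC-Ctrl (blue) and SMC-TAZ-4SA (red) and bars are means of 3. The points of Bcl2 and Bax overlap between groups, and those of the other 8 genes do not.

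Among the anti-apoptotic genes, the most abundant one changed places. Bcl2l1, on chromosome 2 (152780668 to 152831728, minus strand, GRCm38), encodes BCL-XL, which binds BAX, BAK1 and BH3-only proteins at mitochondria. Its level was 67.5, 70.9 and 71.2 FPKM in SMC-Ctrl and 19.6, 16.8 and 16.8 FPKM in SMC-TAZ-4SA. Every SMC-TAZ-4SA library lay far below every SMC-Ctrl library. The mean fell from 69.9 ± 2.08 to 17.7 ± 1.60 FPKM (SD, n = 3 libraries each), a 3.95-fold lower level. On the log2(FPKM + 1) scale the change was -1.92 with an SE of 0.074 (limma adjusted p = 6.91e-08). Bcl2l1 stood at the 94.1 percentile of tested genes by mean FPKM in SMC-Ctrl and at the 64.1 percentile in SMC-TAZ-4SA.

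Mcl1, on chromosome 3 (95658788 to 95663176, plus strand), encodes a short-lived guardian that holds BAK1 and is itself bound by NOXA. It was measured at 33.0, 32.6 and 31.1 FPKM in SMC-Ctrl and at 58.5, 57.6 and 57.0 FPKM in SMC-TAZ-4SA. The groups were tight and well apart. The mean rose 1.79-fold, from 32.2 ± 1.0 to 57.7 ± 0.776 FPKM, and the log2 change was 0.82 with an SE of 0.056 (limma adjusted p = 2.45e-06). Mcl1 had a smaller change than Bcl2l1 in the opposite direction.

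Bcl2, on chromosome 1 (106538178 to 106714274, minus strand), is the founding member of the family. It was low throughout, at 4.04, 3.91 and 3.76 FPKM in SMC-Ctrl and 3.51, 4.06 and 3.99 FPKM in SMC-TAZ-4SA. The groups overlapped, and the lowest library of all was in SMC-TAZ-4SA. The log2 change of -0.016 did not pass (95% interval -0.17 to 0.14, limma adjusted p = 0.832).

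Summed over these 3 genes, the anti-apoptotic level went from 106 ± 1.45 to 79.3 ± 2.04 FPKM. FPKM is scaled by transcript length, so levels of different genes were set side by side. The lengths used are not known, and annotated transcripts of 1 gene differ (Bcl2l1 472 to 2568 bases, Bax 222 to 1100). Sums, shares and ratios across genes are therefore approximate. Bcl2l1 made up 65.9% ± 1.29 of the SMC-Ctrl sum and 22.3% ± 1.43 of the SMC-TAZ-4SA sum. Mcl1 made up 30.4% ± 1.13 and 72.8% ± 0.942, and Bcl2 3.68% ± 0.166 and 4.87% ± 0.493. The ratio of Bcl2l1 to Mcl1 went from 2.17 ± 0.123 to 0.307 ± 0.0238.

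The effectors differed from each other. Bak1, on chromosome 17 (27019810 to 27029009, minus strand), encodes BAK, which sits in the outer mitochondrial membrane. It rose from 21.5, 21.3 and 20.6 FPKM to 81.8, 82.7 and 80.4 FPKM. The spread within each group was small beside the gap between them. The mean level went from 21.1 ± 0.485 to 81.6 ± 1.16 FPKM, 3.87-fold higher, and the log2 change was 1.90 with an SE of 0.054 (limma adjusted p = 1.10e-08). In GENCODE M21 an exon of Bak1 overlaps Ggnbp1 on the opposite strand, and use of strand in the counting is not given in the sources used here. Ggnbp1 was at 0.857 ± 0.306 and 0.721 ± 0.314 FPKM.

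Bax, on chromosome 7 (45461697 to 45466898, minus strand), encodes the cytosolic effector that moves to mitochondria when activated. Its level was 66.3, 70.1 and 70.2 FPKM in SMC-Ctrl and 88.4, 71.9 and 66.8 FPKM in SMC-TAZ-4SA. The highest value came from SMC-TAZ-4SA replicate 1, while the other SMC-TAZ-4SA libraries lay within or close to the SMC-Ctrl values. The mean was 68.9 ± 2.25 and 75.7 ± 11.3 FPKM, and the log2 change of 0.13 did not pass (95% interval -0.12 to 0.37, limma adjusted p = 0.295). Without SMC-TAZ-4SA replicate 1 the log2 change was 0.0095. With libraries scaled to the same total or the same upper quartile it was -0.092 or -0.025, also short of the threshold. GENCODE places the exons of Gm45808 over Bax on the same strand, so reads in shared exons cannot be told apart.

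The summed effector level, of Bax and Bak1, went from 90.0 ± 1.97 to 157 ± 11.7 FPKM. All sums by role cover the 10 members only. Other family genes of these roles are left out and described below, among them Bok, Bmf and Bcl2l2, which fell, and Bad, which rose. The level of Bax was 3.26 ± 0.166 times that of Bak1 in SMC-Ctrl, and 0.927 ± 0.135 times with TAZ-4SA. Bak1 exceeded Bax in SMC-TAZ-4SA replicates 2 and 3 and was below it in replicate 1. The ratio of the anti-apoptotic sum to the effector sum, which no scaling of a library can alter, was 1.19, 1.17 and 1.17 in the SMC-Ctrl libraries, and 0.480, 0.507 and 0.528 in those with TAZ-4SA. The groups did not overlap.

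**Figure D2:**
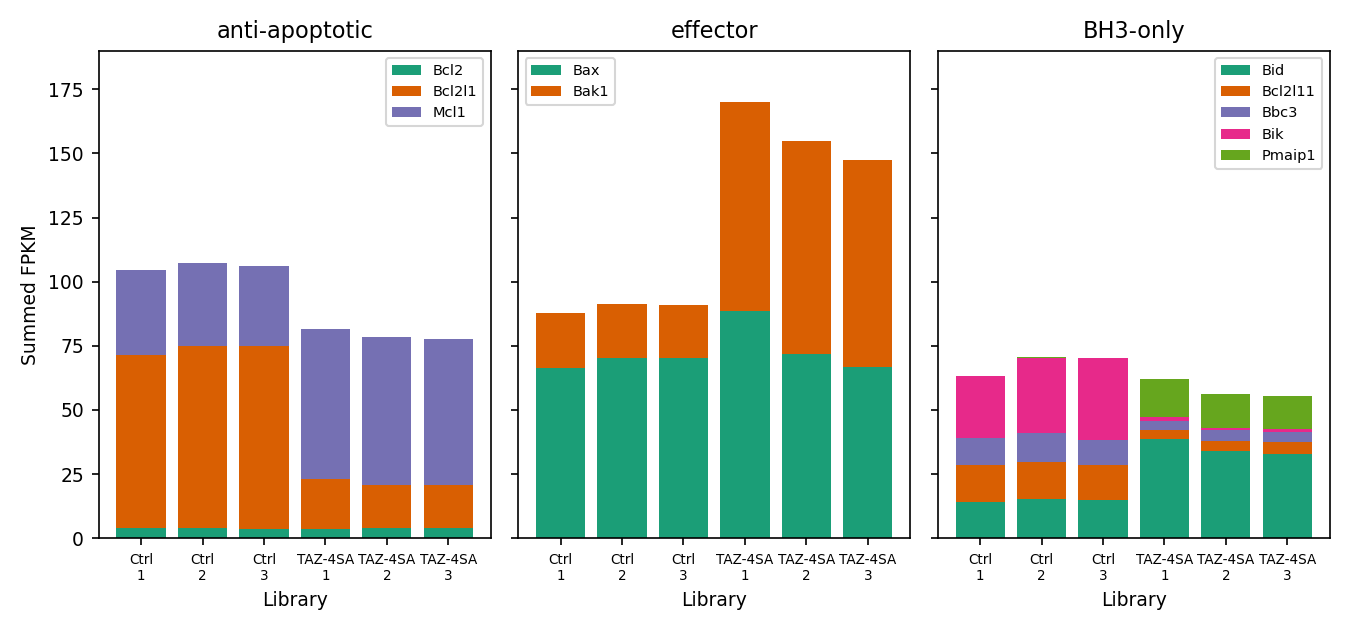
Summed FPKM (y axis, from 0) of the anti-apoptotic, effector and BH3-only genes in each of the 6 libraries (x axis), with each gene as a coloured block. The means went from 106 to 79.3, from 90.0 to 157 and from 67.9 to 57.9 FPKM, and the main gene within each sum differed between groups, except that Bax and Bak1 were nearly level in SMC-TAZ-4SA.

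Among the BH3-only genes, 3 fell and 2 rose. Bid, on chromosome 6 (120891930 to 120916853, minus strand), encodes the protein that caspase 8 cleaves to link death receptors to mitochondria. It was at 14.0, 15.4 and 14.8 FPKM in SMC-Ctrl and at 38.7, 33.9 and 33.0 FPKM in SMC-TAZ-4SA. All SMC-TAZ-4SA libraries were above all SMC-Ctrl libraries. The mean rose 2.39-fold, from 14.7 ± 0.682 to 35.2 ± 3.09 FPKM, with a log2 change of 1.20 and an SE of 0.076 (limma adjusted p = 1.64e-06). Bid shares exon sequence with Bcl2l13 on the opposite strand, and Bcl2l13 moved the other way, from 17.8 ± 0.175 to 12.4 ± 0.374 FPKM.

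Pmaip1, on chromosome 18 (66458533 to 66465565, plus strand), encodes NOXA, a BH3-only protein that binds MCL1. It was near 0 in SMC-Ctrl, at 0.110, 0.0366 and 0.0309 FPKM, and reached 14.9, 13.5 and 12.8 FPKM in SMC-TAZ-4SA. Using the shortest annotated transcript and an estimated depth, the SMC-Ctrl values stand for about 4.07, 1.49 and 1.13 fragments. No fold is given for this reason. The log2(FPKM + 1) change was 3.80 with an SE of 0.071 (limma adjusted p = 1.22e-09), and its size depends on the pseudocount of 1. Pmaip1 passed the filter on low values only through SMC-TAZ-4SA, so it could not have been called lower.

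Bik showed the largest fall of the 10 genes. It lies on chromosome 15 (83526862 to 83544634, plus strand) and encodes a BH3-only protein found mainly at the endoplasmic reticulum. Its level was 24.1, 29.5 and 31.6 FPKM in SMC-Ctrl and 1.28, 0.819 and 1.005 FPKM in SMC-TAZ-4SA. It was a well-expressed gene in every SMC-Ctrl library and close to the filter on low values in every SMC-TAZ-4SA library. The mean went from 28.4 ± 3.90 to 1.04 ± 0.234 FPKM, 27.4-fold lower, and the log2 change was -3.85 with an SE of 0.120 (limma adjusted p = 1.88e-08). By size of change Bik stood at the 96.8 percentile and Pmaip1 at the 96.6 percentile of all tested genes.

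Bcl2l11, on chromosome 2 (128126038 to 128162547, plus strand), encodes BIM, which binds all the guardians and can activate BAX and BAK directly. It fell from 14.7, 14.4 and 13.6 FPKM to 3.57, 4.22 and 4.58 FPKM. No library of either group came near the other group. The mean went from 14.2 ± 0.569 to 4.12 ± 0.509 FPKM, 3.45-fold lower, with a log2 change of -1.58 and an SE of 0.084 (limma adjusted p = 5.41e-07).

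Bbc3, on chromosome 7 (16308393 to 16318205, plus strand), encodes PUMA, a target of p53 with the same wide binding as BIM. It fell from 10.3, 11.1 and 10.1 FPKM to 3.47, 3.98 and 4.02 FPKM. Again the groups were apart. The mean was 2.74-fold lower, 10.5 ± 0.548 against 3.82 ± 0.307 FPKM, with a log2 change of -1.25 and an SE of 0.072 (limma adjusted p = 8.86e-07).

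The 5 BH3-only genes summed to 67.9 ± 4.12 FPKM in SMC-Ctrl and to 57.9 ± 3.54 FPKM in SMC-TAZ-4SA, a small difference beside the changes of its parts. In SMC-Ctrl the sum was 41.7% ± 3.51 Bik, 21.7% ± 0.574 Bid, 21.0% ± 2.0 Bcl2l11, 15.5% ± 0.975 Bbc3 and 0.0900% ± 0.0727 Pmaip1. In SMC-TAZ-4SA it was 60.7% ± 1.58 Bid, 23.7% ± 0.517 Pmaip1, 7.17% ± 1.28 Bcl2l11, 6.64% ± 0.905 Bbc3 and 1.78% ± 0.311 Bik. Bid and Bcl2l11 were close to equal in SMC-Ctrl, with a ratio of 1.04 ± 0.0716, and Bid was 8.69 ± 1.90 times Bcl2l11 in SMC-TAZ-4SA. The ratio of the anti-apoptotic sum to the BH3-only sum went from 1.56 ± 0.0788 to 1.37 ± 0.0470, without overlap.

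**Figure D3:**
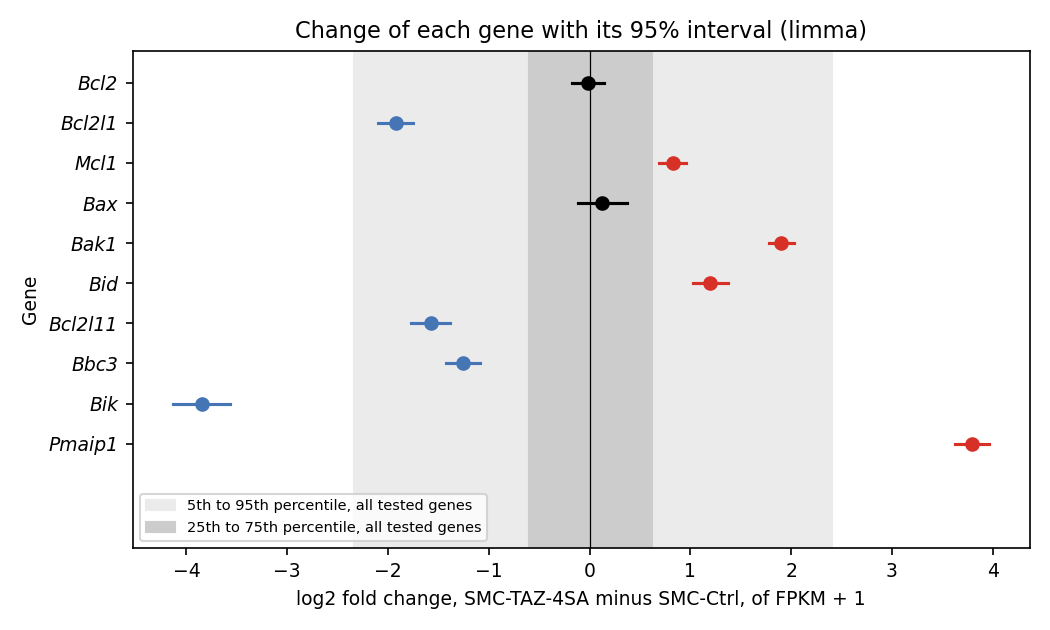
Log2 fold change of FPKM + 1 (x axis, SMC-TAZ-4SA minus SMC-Ctrl) of the 10 genes with 95% limma intervals, red for higher, blue for lower and black for genes short of the threshold. Grey bands hold the middle of all 12141 tested genes (25th to 75th and 5th to 95th percentile). Bik at -3.85 and Pmaip1 at 3.80 lie outside both bands.

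In order of mean level, SMC-Ctrl had Bcl2l1 (69.9 FPKM) and Bax (68.9 FPKM) at the top, which overlapped over the libraries, then Mcl1 and Bik, which also overlapped, and Bak1. Bid and Bcl2l11 followed with overlapping values, then Bbc3, Bcl2 and Pmaip1. In SMC-TAZ-4SA the order was Bak1 (81.6 FPKM) and Bax (75.7 FPKM), which overlapped, then Mcl1, Bid, Bcl2l1 and Pmaip1. Bcl2l11, Bcl2 and Bbc3 came next with overlapping values, and Bik was last. SMC-TAZ-4SA replicate 1 had the highest value of its group for 6 of the 10 members and the lowest for 3, and also the largest summed FPKM of the 6 libraries.

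Other genes of the BCL2 family were described from a list of 18, of which 11 were tested. Of these, 2 rose, 8 fell and 1 did not pass. The median log2 change was -0.65. So 10 of 11 were called, against 80.3% of all tested genes. Bnip3, a mitochondrial receptor for mitophagy, went from 80.9 ± 6.30 to 8.24 ± 1.90 FPKM (log2 change -3.17), and its relative Bnip3l from 63.2 ± 3.61 to 17.1 ± 1.74 FPKM (-1.83). Bmf, a BH3-only gene linked to anoikis, fell from 11.1 ± 0.366 to 2.72 ± 0.123 FPKM (-1.70). Bcl2l14 fell from 9.76 ± 1.06 to 0.252 ± 0.0696 FPKM (-3.10) and passed the filter only through SMC-Ctrl. Bok, an effector relative of Bax and Bak1, fell from 38.1 ± 2.80 to 23.9 ± 1.09 FPKM (-0.65). Bnip1, Bcl2l13 and Bcl2l2, which encodes the anti-apoptotic BCL-W, were also lower, by -0.68, -0.50 and -0.28. Bcl2l12 rose from 3.83 ± 0.182 to 10.9 ± 0.899 FPKM (1.30), and Bad, a BH3-only gene controlled by phosphorylation, from 5.98 ± 0.138 to 8.41 ± 1.55 FPKM (0.42). Becn1, an autophagy gene, did not pass at -0.12 (limma adjusted p = 0.146). Without SMC-TAZ-4SA replicate 1 it passed at -0.16, and it also passed under both scalings. The genes under the filter were Bcl2l10, Bcl2a1a, Bcl2a1b, Bcl2a1c, Bcl2a1d, Hrk and Bcl2l15.

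Genes acting after pore formation, called the caspase cascade list here, were described from 17 genes, 16 of them tested. Of these, 4 rose and 11 fell, with a median log2 change of -0.38. So 15 of 16 were called, against 80.3% of all tested genes. Diablo, counted among the 11 (-0.28), overlapped between the groups. It did not pass with no filter, with a replicate block, or without SMC-Ctrl replicate 2 or 3 or SMC-TAZ-4SA replicate 2 or 3. Also on the list were inhibitor of apoptosis genes, of which Xiap, Birc2 and Birc6 fell and Birc5 rose. The counts therefore mix opposing roles. Htra2, a mitochondrial protease that antagonizes inhibitor of apoptosis proteins, rose from 7.59 ± 0.288 to 36.6 ± 2.14 FPKM (log2 change 2.13). Aifm1, which encodes apoptosis-inducing factor, rose from 14.5 ± 1.37 to 39.6 ± 3.25 FPKM (1.39). Casp9, the initiator caspase of the apoptosome, fell from 7.71 ± 0.549 to 2.42 ± 0.197 FPKM (-1.35), and Dffa, the inhibitor of the caspase-activated DNase, from 13.6 ± 0.542 to 5.67 ± 0.361 FPKM (-1.13). Cycs, which encodes cytochrome c, was at 11.3 ± 0.669 and 14.5 ± 3.15 FPKM (0.32, limma adjusted p = 0.0548). It passed when any 1 of the 3 SMC-TAZ-4SA libraries was left out, with log2 changes of 0.16 without replicate 1, 0.40 without replicate 2 and 0.40 without replicate 3, and with the replicate number as a block.

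Proteins that bind the members or control their turnover were described from 14 genes, all tested. Of these, 10 rose, 2 fell and 2 did not pass. The median log2 change was 0.53. So 12 of 14 were called, against 80.3% of all tested genes. Usp9x, counted among the 10 (0.32), did not pass under either scaling (0.11 with the same total, 0.17 with the same upper quartile) or without SMC-Ctrl replicate 2. Bag3, a co-chaperone, rose from 2.03 ± 0.155 to 29.3 ± 0.668 FPKM (log2 change 3.32). Dynll1 and Dynll2 encode dynein light chains that tether BIM and BMF, and they moved apart. Dynll1 rose from 48.9 ± 3.86 to 94.3 ± 18.6 FPKM (0.92) while Dynll2 fell from 77.1 ± 12.4 to 34.4 ± 5.96 FPKM (-1.14). Huwe1, which encodes a ubiquitin ligase of MCL1, fell from 52.1 ± 3.47 to 37.9 ± 8.68 FPKM (-0.47). It did not pass without SMC-Ctrl replicate 1 (-0.43) or without SMC-Ctrl replicate 2 (-0.46), or with no filter on low values (limma adjusted p = 0.0798, 0.0770 and 0.0510). All named changes of these 3 lists passed at an adjusted p under the threshold, except where a p is given.

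**Figure D4:**
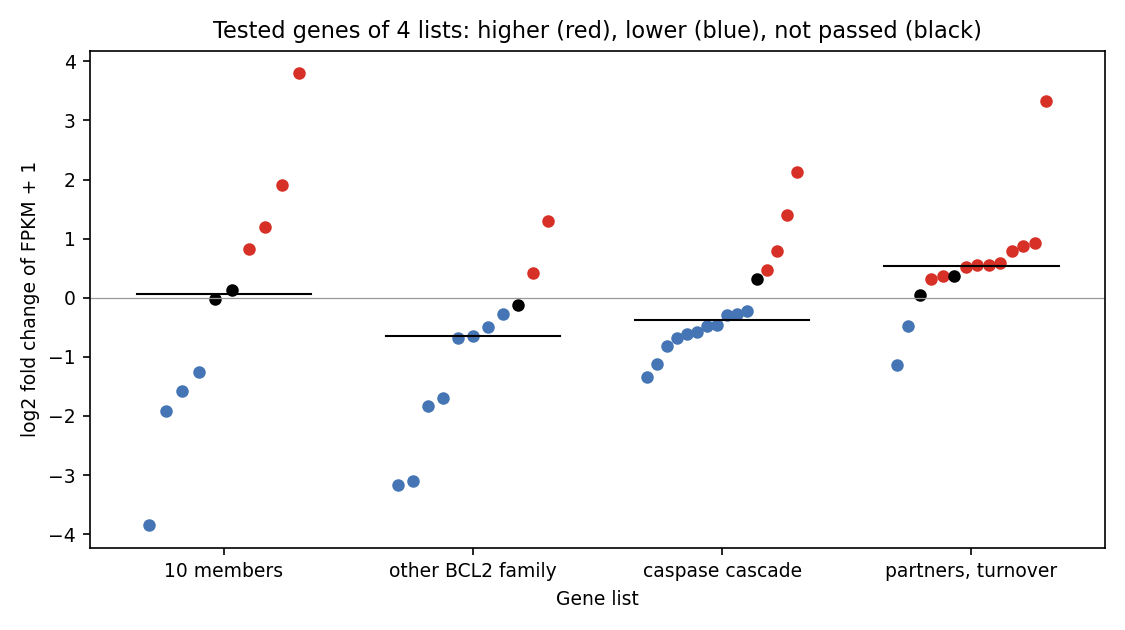
Log2 fold change of FPKM + 1 (y axis) of the tested genes in 4 lists (x axis), each point a gene, red for higher, blue for lower, black for short of the threshold, and a bar at the list's median. Medians were 0.05 for the 10 members, -0.65 for other family genes and -0.38 for the caspase cascade list, which also holds inhibitor of apoptosis genes. The median was 0.53 for partners and turnover, beside 0.02 for all tested genes.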

How the data were processed

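RNA from 3 SMC-Ctrl and 3 SMC-TAZ-4SA libraries was extracted with TRIzol and sequenced on a NovaSeq instrument, and the submitters' processing notes name STAR 2.6 and mm10. The authors deposited FPKM values, fragments scaled by transcript length and library size, in 1 table. For the FPKM step, the tool and annotation were not given in the sources used here. The study's methods name a count model, which FPKM does not allow, so limma 3.58.1 in R 4.3.3 was fitted to log2(FPKM + 1) with the group as the only term and a mean-variance trend, 2-sided. For weakly expressed genes this scale makes fold changes smaller. A gene was tested at 1 FPKM or more in at least 3 libraries. A total of 254 symbols on several lines was left out. The fit was tested on simulated data. FPKM keeps no read number. Low values moved in steps, from which a relative depth of 0.951, 0.848 and 0.720 in SMC-TAZ-4SA and 1.10 and 0.982 in SMC-Ctrl replicates 2 and 3 was estimated, with SMC-Ctrl replicate 1 as 1, and fragment numbers rest on GENCODE transcript lengths. Summed FPKM was 282343 to 294322 in SMC-Ctrl and 322635 to 359248 in SMC-TAZ-4SA.

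Groups and replicate numbers came from sample titles. Gene positions came from GENCODE M21 (GRCm38, the assembly of mm10) and promoters from RefSeq. All members were named with each library's value. All tested genes of the other family list were named. Of the caspase, partner and regulator lists the 2 largest rises and 2 largest falls past the threshold were named. Further genes of these lists were named for their role or for a call that changed under an alternative. Wwtr1, Ncam1, Cd44, Rb1 and Trp53 were read as checks of the labels, with the conflicts for Ncam1 and Rb1 given above. The members and lists were chosen with earlier results of these data known. Alternatives were another pseudocount, other filters and scalings, no trend, a replicate block and leaving out each library.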

Additional observations from a re-analysis of the deposited data

How the results depend on the processing

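The 8 members past the threshold kept their direction and their side of it in 104 of 104 fits over 13 alternatives. Counts of calls stayed within 1.5 times their main value in 65 of 65. The lists were called nearly in full, so that bound says little about them. Over all tested genes the count went from 7650 with a filter of 5 FPKM to 11853 with no filter, against 9754. In the other lists, Becn1, Cycs, Diablo, Vdac1, Vdac3, Huwe1, Usp9x, Trp53 and Stat3 crossed the threshold in some alternatives. Bcl2 and Bax, which did not pass, changed sign in some fits. The log2 change of Bcl2 ranged from -0.0475 to 0.0359 when each library was left out in turn, positive without SMC-Ctrl replicate 1 (0.0039) and without SMC-TAZ-4SA replicate 1 (0.0359). It was -0.19 with libraries scaled to the same total (limma adjusted p = 0.0795) and -0.14 with the same upper quartile (0.128). That of Bax was -0.0918 and -0.0249 under these scalings. With a filter of 5 FPKM Bcl2 was not tested. The cause of these shifts was not tested. Same-numbered libraries did not deviate together (correlations across genes of -0.25, -0.060 and -0.31), so the numbers were not taken to pair the samples. A replicate block called 9350 genes in place of 9754 and 8 members as before. Pmaip1 in SMC-Ctrl rests on a few fragments and Bik in SMC-TAZ-4SA on about 14.0 to 24.6 by its shortest transcript, so low values there carry large counting error. Strand, overlapping gene models and the isoforms behind each FPKM could not be examined.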

Other observations

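Transcription factors known to act on BCL2 family genes were described from a list of 10, all tested. Of these, 6 rose, 3 fell and 1 did not pass by limma, with a median log2 change of 0.28. So 9 of 10 were called, against 80.3% of all tested genes. Stat3, counted among the 6 (0.18), did not pass under either scaling (-0.02 with the same total, 0.04 with the same upper quartile). It also fell short with a replicate block, without SMC-Ctrl replicate 1 and without SMC-TAZ-4SA replicate 3. Myc rose from 1.07 ± 0.0471 to 65.3 ± 2.07 FPKM (SD, n = 3 libraries each), a log2(FPKM + 1) change of 5.00. Ddit3, which encodes the stress factor CHOP, rose from 6.08 ± 0.536 to 29.0 ± 4.13 FPKM (2.08). Trp73, a relative of Trp53, fell from 5.34 ± 0.264 to 0.00861 ± 0.00451 FPKM (-2.65). It passed the filter on low values only through SMC-Ctrl, so it could not have been called higher. E2f1 fell from 58.8 ± 5.27 to 21.1 ± 1.01 FPKM (-1.43). Trp53, which was deleted in these cells by the study's genotyping, was the gene that did not pass. It passed as lower without SMC-TAZ-4SA replicate 1 and under both scalings. Whether any of these factors acts on a member was not tested.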
